A study of Mus musculus with 46 samples.

Results

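The organic ion and drug transporter genes described here are the mouse genes whose symbols begin with Slc22a, Slco or Abcc followed by a digit. The rule found 45 genes, the same in both expression tables, out of 17242 genes measured at 12 weeks and 18531 measured at 18 months. They comprise 23 Slc22a genes, 12 Slco genes and 10 Abcc genes.

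Kidney and liver RNA was sequenced from wild-type C57BL/6 mice operated on as 8-week-old adults, and tissue was taken at 12 weeks or 18 months. The arms were castrated males, sham-operated females and sham-operated males, and all of them underwent an operation. In each tissue, 6 libraries of castrated males were made at 12 weeks and 5 at 18 months, and every sham group had 3 libraries. The values used here are 1 mean per group, so no spread between animals can be given for a mean, and no library could be examined alone.

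Slc22a and Slco proteins are membrane carriers that bring organic anions, cations, carnitine, bile acids, steroid conjugates and many drugs into cells. Abcc proteins, also called multidrug resistance-associated proteins, use ATP to pump conjugated compounds out of cells. In the kidney they work in sequence across the proximal tubule to secrete drugs and to handle urate, and in the liver they load hepatocytes from blood and empty them into bile or back into blood. Several of them are known in rodents to differ between males and females.

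Means at 12 weeks are FPKM, which scale reads by transcript length, and means at 18 months are a normalized expression signal whose unit is not named. Differences are given as log2(mean + 1) of castrated males minus sham males (castration), of sham females minus sham males (sex) or of castrated males minus sham females, and the added 1 understates the change of genes with low means. Genes were called at an adjusted p below 0.05 in the authors' deposited tables. At 12 weeks each gene stands in the authors' tables for only 1 of these 3 comparisons, so a gene without a call in the others was often not listed for them. At 18 months every comparison was tested for most genes, and a standard error was implied from the authors' fold and p, a step chosen after the data were seen. These p-values measure only the spread between the libraries of a group. Of the 45 genes, 37 reached a mean of at least 1 in kidney at either age, and 27 did so in liver at 12 weeks and 26 at 18 months. Abcc12, Abcc8, Slco1a5, Slco1c1 and Slco5a1 stayed under 1 in every group, with a highest mean of 0.61 for Abcc8 in kidney of castrated males at 12 weeks.

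**Figure D1:**
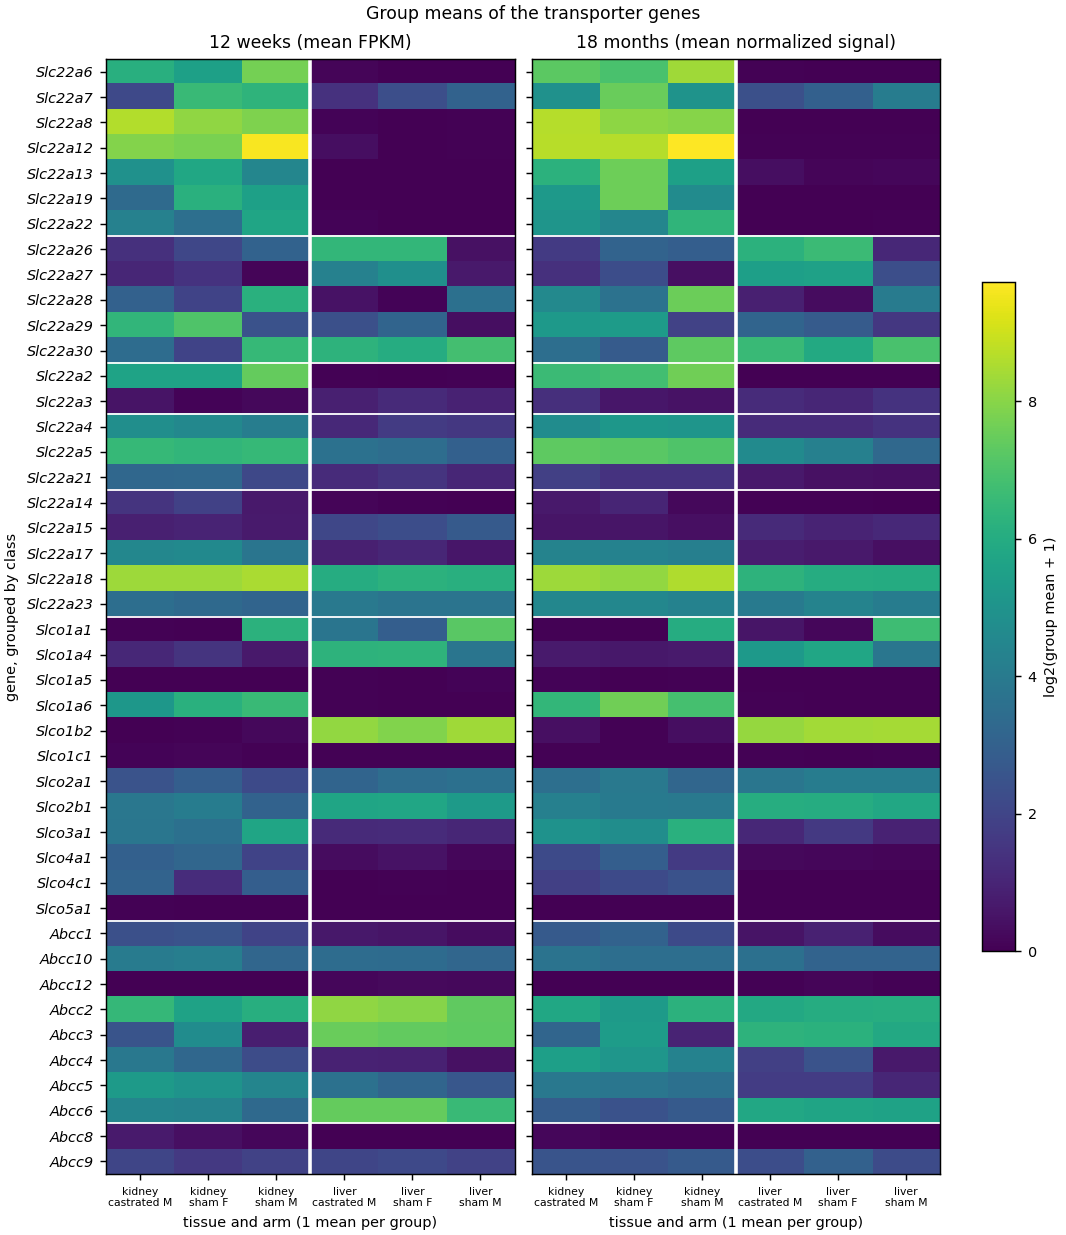
Heat map of log2(group mean + 1) for the transporter genes (rows, grouped by class) in kidney and liver of castrated males, sham females and sham males at 12 weeks (left, FPKM) and 18 months (right, normalized signal). White lines separate classes and tissues. Slc22a12 in kidney of sham males is the brightest cell at both ages, with means of 801 and 851, and Slco1b2 is bright in liver and dark in kidney.

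The tissue labels held against marker genes. In liver, 0 of 11 kidney markers, among them Umod and Slc34a1, reached a mean of 1 at either age, while their summed mean in kidney was 2699 to 3079.7 FPKM at 12 weeks. Hepatocyte markers in liver summed to 53506 to 56235 FPKM at 12 weeks, although Alb was listed at 0 there in all 3 arms and at 45204 to 49901 at 18 months, so a 12-week value of 0 can be a failed estimate. In 18-month kidney, the 10 hepatocyte markers summed to 202 in castrated males, 90.3 in sham females and 150.5 in sham males, with 9 of the 10 at 1 or above in at least 1 arm and Cps1 below it, and Alb at 65.1, 12.8 and 21.7. In 12-week kidney they summed to 47.2, 71.9 and 168 FPKM, with 5 of the 10 at 1 or above, and Ttr alone accounted for 19.9, 35.8 and 135 FPKM of these sums. Slco1b2, an uptake carrier of hepatocytes, was at 0.33, 0.037 and 0.28 in 18-month kidney, against 288 or more in 18-month liver of every arm. The 10 proximal tubule markers in kidney summed to 5881 FPKM in castrated males, 5338 in sham females and 6214 in sham males at 12 weeks, and to 8049.6, 6644 and 8345 at 18 months. Fibroblast markers in 12-week kidney summed to 100.2, 111 and 42.0 FPKM in that order of arms, with 5 of 5 at 1 or above, and macrophage markers to 27.6, 45.7 and 19.8 FPKM, with Clec4f and Cd163 under 1. In liver, macrophage markers, 6 of 6 at 1 or above, summed to 74.6 FPKM in castrated males, 124 in sham females and 42.6 in sham males at 12 weeks, and to 58.0, 139 and 46.8 at 18 months. Fibroblast and stellate markers in 18-month liver, 5 of 5 at 1 or above, summed to 114, 253 and 99.6, and 4 of the 5 were called higher in sham females than in sham males. The part of these differences in the results on transporters was not tested, and in whole tissue fewer cells of a type and less RNA per cell cannot be told apart.

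Many of these genes lie side by side and resemble each other closely, which bears on how their reads were assigned. On chromosome 19 of build mm10, Slc22a19, Slc22a26, Slc22a27, Slc22a28, Slc22a29 and Slc22a30 follow one another on the minus strand between 7673061 and 8405111, with Slc22a8 and Slc22a6 next to them. On chromosome 6, Slco1c1, Slco1b2, Slco1a4, Slco1a1, Slco1a6 and Slco1a5 span 141524368 to 142322981. The coding sequences of Slc22a28 and Slc22a30 were 98.8% identical over 1656 aligned bases, differed at 20 of them, and shared an unbroken run of 431 bases. Those of Slc22a27 and Slc22a29 were 97.3% identical, and every pair among Slc22a27 to Slc22a30 was at least 91.5% identical. Between Slc22a21 and Slc22a5 the identity was 89.4%, and among Slco1a1, Slco1a4, Slco1a5 and Slco1a6 it ranged over pairs from 83.9% to 89.4%. Of 364 pairs within the 3 families, 20 shared at least 1 stretch of 50 identical coding bases. Reads of 150 bases from Slc22a28 and Slc22a30 could therefore not always be assigned to 1 of them, and the treatment of such reads is not stated in the labels. Slc22a13 lies within the annotated span of Slc22a14 on the same strand, so reads of these genes may also be shared.

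Promoter windows, 250 bases before to 50 bases after the annotated start, were found in RefSeq (GRCm38.p6) for 36 of the 45 genes. Those without one include Abcc1, Abcc3, Abcc6, Abcc8, Slc22a21, Slc22a7, Slco3a1 and Slco5a1. The windows of Slc22a28, Slc22a30 and Slc22a29 are shown because these neighbours differ in how their RNA varied with castration and sex. In the first pair, capitals mark the 6 bases at which Slc22a28 and Slc22a30 differ over their 294 overlapping positions, which were 98.0% identical. In Slc22a29, capitals mark the bases that differ from Slc22a28 within their best local alignment, which covers 232 columns at 82.8% identity.
Slc22a28 (chr19:8131933-8132232, minus strand): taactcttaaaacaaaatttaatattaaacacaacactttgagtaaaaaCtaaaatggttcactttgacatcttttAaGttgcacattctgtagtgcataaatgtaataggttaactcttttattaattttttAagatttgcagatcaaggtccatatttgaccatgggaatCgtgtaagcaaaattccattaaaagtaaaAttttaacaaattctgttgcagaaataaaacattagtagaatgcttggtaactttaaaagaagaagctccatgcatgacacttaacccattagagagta
Slc22a30 (chr19:8405056-8405355, minus strand): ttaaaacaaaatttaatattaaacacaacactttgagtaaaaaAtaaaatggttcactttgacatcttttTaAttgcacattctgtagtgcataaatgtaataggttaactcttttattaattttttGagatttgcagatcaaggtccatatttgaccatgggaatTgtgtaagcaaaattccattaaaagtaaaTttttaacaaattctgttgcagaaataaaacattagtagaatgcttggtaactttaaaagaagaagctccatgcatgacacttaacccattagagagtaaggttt
Slc22a29 (chr19:8218851-8219150, minus strand): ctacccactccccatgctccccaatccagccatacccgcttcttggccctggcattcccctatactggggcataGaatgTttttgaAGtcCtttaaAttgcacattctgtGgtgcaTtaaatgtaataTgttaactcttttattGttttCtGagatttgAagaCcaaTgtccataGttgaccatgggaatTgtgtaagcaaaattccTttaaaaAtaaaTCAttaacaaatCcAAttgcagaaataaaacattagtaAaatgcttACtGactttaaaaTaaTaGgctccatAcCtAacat

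Slc22a26, Slco1a1 and Slco1a4 are shown because sham males differed widely from both other arms in liver, upward for Slco1a1 and downward for the other two. Capitals mark a match to the STAT5 letters TTCNNNGAA in Slc22a26, at -141 from the start, and reverse-strand matches to TATAAA in Slco1a1, at -209 and -99. The Slco1a4 window held no match to any motif searched.
Slc22a26 (chr19:7802618-7802917, minus strand): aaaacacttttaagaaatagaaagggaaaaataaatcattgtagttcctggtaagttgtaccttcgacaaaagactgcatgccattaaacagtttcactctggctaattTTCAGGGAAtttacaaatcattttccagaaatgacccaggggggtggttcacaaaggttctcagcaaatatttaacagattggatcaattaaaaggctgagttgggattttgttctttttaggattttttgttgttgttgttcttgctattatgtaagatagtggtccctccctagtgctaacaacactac
Slco1a1 (chr6:141946913-141947212, minus strand): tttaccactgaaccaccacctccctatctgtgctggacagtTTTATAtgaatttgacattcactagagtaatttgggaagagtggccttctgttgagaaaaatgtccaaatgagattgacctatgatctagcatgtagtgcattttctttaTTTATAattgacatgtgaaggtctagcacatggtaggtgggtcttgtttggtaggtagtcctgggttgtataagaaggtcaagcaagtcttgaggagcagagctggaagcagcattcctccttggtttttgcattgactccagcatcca
Slco1a4 (chr6:141856171-141856470, minus strand): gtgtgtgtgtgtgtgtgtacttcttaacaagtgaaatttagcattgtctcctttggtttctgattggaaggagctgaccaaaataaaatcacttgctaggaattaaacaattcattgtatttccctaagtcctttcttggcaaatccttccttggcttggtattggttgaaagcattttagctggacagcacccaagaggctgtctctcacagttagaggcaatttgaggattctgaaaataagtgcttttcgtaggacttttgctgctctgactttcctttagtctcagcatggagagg
Both strands of every window were searched, and 9 of the 43 windows of the transporter genes held TTCNNNGAA, against 8.30% of all 32851 windows. The narrower TTCCNGGAA, which lies within those letters, was in 2 of the 43 windows and in 1.15% of all windows. TATAAA was in 8 of the 43 windows and in 13.6% of all. The androgen receptor motif, the HNF4 letters CAAAGTCCA and the HNF1 core motif were in 0 of the 43 windows, and in 0.47%, 0.47% and 0.12% of all windows. A match is a description of letters only, and its absence says only that these letters are not in these windows.

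Called for castration at both ages, the uptake carriers Slc22a6, Slc22a22, Slco1a6 and Slco3a1 had less RNA in kidneys of castrated than sham males. By the same calls Slc22a8 and the exporters Abcc1, Abcc3 and Abcc5 had more. In liver, genes called at both ages were Slc22a26, Slc22a29, Slc22a5, Abcc4 and Slco1a4, higher in castrated males, and Slc22a28, lower. Other genes moved at least 2-fold on the mean + 1 scale at both ages but were not listed for castration at 12 weeks. In kidney these were Slc22a12, Slc22a2, Slc22a26, Slc22a28, Slc22a30 and Slco1a1, lower in castrated males, and Slc22a29 and Abcc4, higher. In liver they were Slc22a7 and Slco1a1, lower, and Slc22a27, higher. In 12-week kidney, 19 of the 45 genes were tested for castration, and 9 were called higher and 7 lower in castrated males than in sham males. Over all genes tested there, 32.8% were called higher and 37.9% lower, shares that the authors' listing of genes by comparison inflates. In 18-month kidney, all 45 genes were tested, and 11 were called higher and 16 lower in castrated males, where 9.56% and 13.1% of all tested genes were called higher and lower. In 12-week liver, 8 of the 15 genes tested were called higher and 5 lower in castrated males, beside 20.2% and 21.5% of all genes tested. In 18-month liver, 6 of the 41 genes tested were called higher and 3 lower, beside 1.08% and 1.01% of all genes tested.

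At 18 months, many of the genes called for castration were also called between sham females and sham males. At 12 weeks no gene could be called for both, because each was listed for only 1 comparison. In 12-week kidney, 6 of the 12 genes tested were called higher and 6 lower in sham females, where 44.4% and 42.1% of all tested genes were called. The listing of genes by comparison inflates these shares too. Each of the 12 genes listed was called, so a call for sex in 12-week kidney adds little to the listing itself. In 18-month kidney, 12 of 45 were called higher and 11 lower in sham females, beside 7.91% and 8.90% of all genes. In 12-week liver only Slc22a17 was tested for sex, and it was called higher in sham females. Of all genes tested there, 47.1% were called higher and 52.9% lower, so every gene listed was called. The call of Slc22a17 is therefore given by its listing. In 18-month liver, 7 of the 40 genes tested were called higher and 4 lower in sham females, beside 5.87% and 3.91% of all genes. These comparisons and those of castration share the sham males.

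Castrated males and sham females, compared directly, gave fewer calls than castration or sex in each tissue at 18 months. At 12 weeks the numbers of calls depend on the comparison each gene was listed for, so they cannot be ranked. In 12-week kidney, 2 of the 6 genes tested were called higher in castrated males and 1 lower, where 4.77% and 2.93% of all genes were called. In 18-month kidney, 5 of 45 were called higher in castrated males and 8 lower, beside 2.73% and 4.41% of all genes. In 12-week liver, 1 of the 12 genes tested was called higher and 3 lower, beside 2.58% and 4.28%. In 18-month liver, 0 of the 41 genes tested were called higher or lower by DESeq2 as the authors ran it, where 0.530% of all genes were called higher and 0.595% lower, and 7 of the 41 had an unadjusted p under 0.05.

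Large differences were more frequent among these genes than over the whole tables, which is given as a description and not a test. Counting genes whose larger mean was at least 1, 48.6% of the 37 transporter genes in 12-week kidney were at least 2-fold higher or lower in castrated males than in sham males on the mean + 1 scale, against 6.38% of all 11915 genes. The share was 32.4% against 2.53% in 18-month kidney, 25.9% against 4.93% in 12-week liver and 34.6% against 3.11% in 18-month liver. For sex it was 54.1% against 10.1% and 37.8% against 3.91% in kidney at 12 weeks and 18 months, and 22.2% against 5.22% and 34.6% against 6.60% in liver. Differences ran both ways, so the median over the transporter genes was small. For castration it was 0.34 in 12-week kidney, 0.17 in 18-month kidney, 0.17 in 12-week liver and 0.12 in 18-month liver, beside 0.02, 0.13, -0.02 and 0.13 over all genes. For sex it was 0.28, 0.09, 0.18 and 0.12 in that order, beside -0.01, 0.11, -0.02 and 0.14. For castrated males minus sham females it was 0.02, 0.03, -0.03 and -0.01, beside 0.01, 0.01, 0.004 and -0.03. At 18 months the median gene itself lay 0.13 above 0 for castration in both tissues, so small differences of 18-month means carry this shift. Relative to the median gene, the 18-month medians were 0.04 in kidney and -0.007 in liver for castration, and -0.01 in kidney and -0.02 in liver for sex. Calls and folds at that age come from the authors' test.

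**Figure D2:**
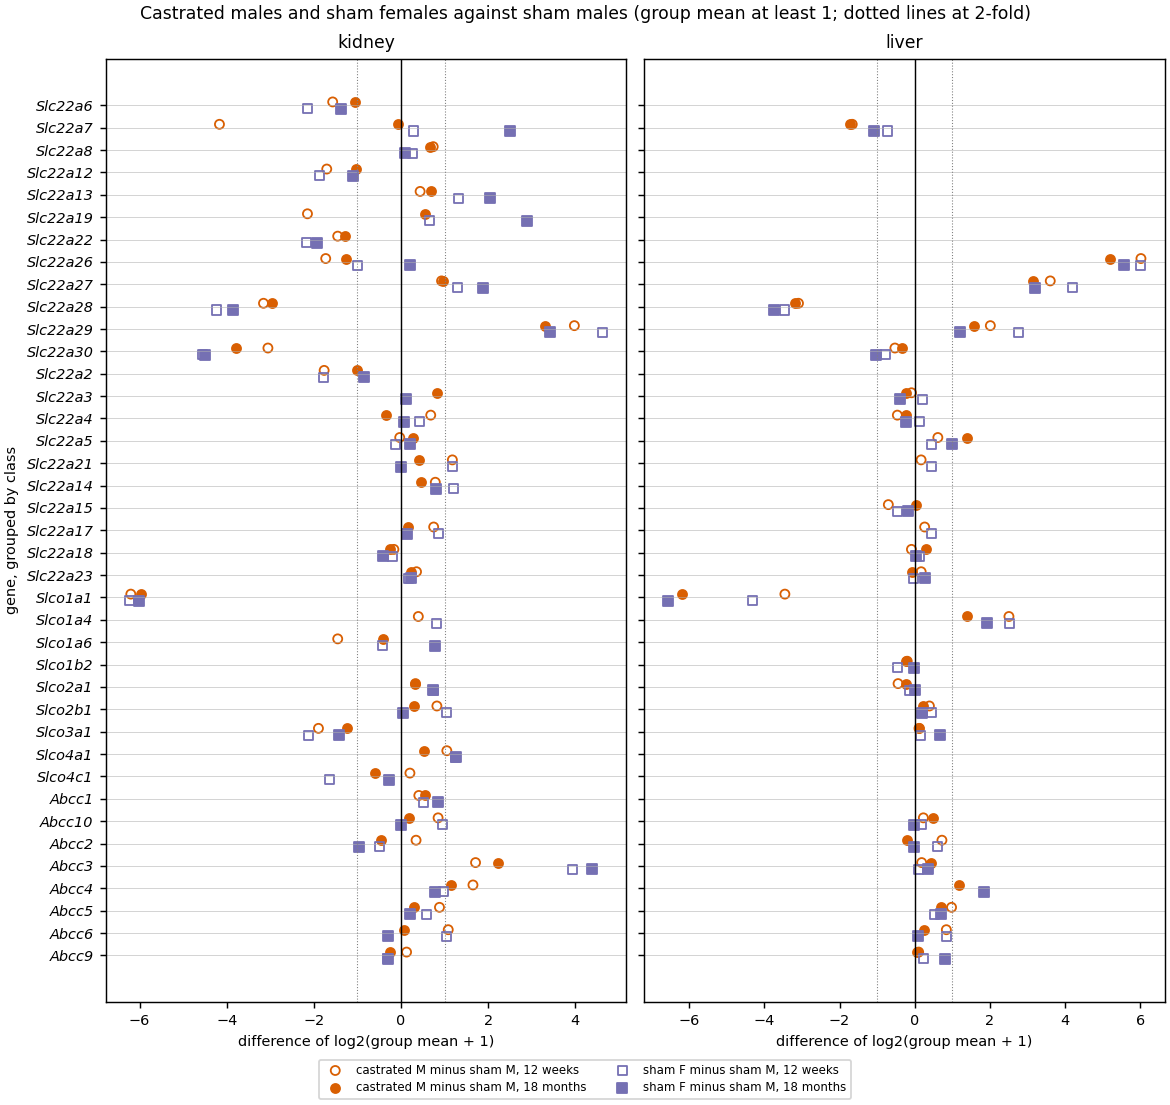
Differences of log2(group mean + 1) for the transporter genes that reached a mean of 1 in the tissue, in kidney (left) and liver (right). Circles are castrated males minus sham males and squares sham females minus sham males, open at 12 weeks and filled at 18 months, each 1 difference of group means. Slco1a1 lies far to the left in both tissues, Slc22a29 and Abcc3 to the right in kidney, and Slc22a26 to the right in liver.

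Slc22a6 and Slc22a8 encode the basolateral carriers that load proximal tubule cells with organic anions such as urate, uraemic solutes and many drugs. Slc22a6 averaged 69.0 FPKM in castrated males and 45.7 in sham females, against 207 in sham males, in 12-week kidney, and 156, 123 and 324 in that order at 18 months. It fell with castration at both ages and was lower in sham females at 18 months. Slc22a8 averaged 387 FPKM in castrated males, 276 in sham females and 231 in sham males at 12 weeks, and 398, 268 and 251 at 18 months. It rose with castration at both ages, so these adjacent genes moved in opposite directions in kidney of castrated males. In the authors' deposited table at 18 months, log2 folds of castrated over sham males were -1.21 for Slc22a6 and 0.51 for Slc22a8, with implied standard errors of 0.09 and 0.10. Over sham females, the same table gave castrated males folds of 0.33 for Slc22a6 and 0.56 for Slc22a8, and both were called.

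Slc22a12, the apical urate reabsorption carrier, had the highest mean of the 45 genes in kidney of sham males. It averaged 245 FPKM in castrated males and 218 in sham females, against 801 in sham males, at 12 weeks. At 18 months it averaged 415 in castrated males and 398 in sham females, against 851 in sham males. It was called lower for sex at 12 weeks and for both castration and sex at 18 months. In the authors' deposited table at 18 months, its log2 folds over sham males were -1.19 in castrated males and -1.23 in sham females, with implied standard errors of 0.09 and 0.13. Slc22a22, a prostaglandin carrier of the mouse proximal tubule, followed the same order, with 18.4 FPKM in castrated males, 10.9 in sham females and 52.3 in sham males at 12 weeks and 33.1, 20.9 and 81.8 at 18 months. It fell with castration at both ages, and at 18 months castrated males were called above sham females, with a log2 fold of 0.65 in the authors' deposited table.

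Slc22a7, Slc22a19 and Slc22a13 had another order, with high means in sham females. Slc22a7, an organic anion carrier, averaged 3.45 FPKM in castrated males, 96.0 in sham females and 78.9 in sham males in 12-week kidney. At 18 months it averaged 29.1 in castrated males, 180.0 in sham females and 30.8 in sham males. Castrated males thus stood far below both sham arms at 12 weeks and level with sham males at 18 months. It was called lower with castration at 12 weeks and not at 18 months, where the authors' deposited table gave -0.23 as the log2 fold, with 0.45 as its implied standard error. Slc22a19, which carries steroid sulfates in mouse kidney, averaged 9.36 FPKM in castrated males, 71.3 in sham females and 44.9 in sham males at 12 weeks, and 36.8, 192 and 24.9 at 18 months. It too fell with castration at 12 weeks, and at 18 months its log2 fold of 0.42 in the authors' deposited table was not called. The ages were processed separately, so the difference between them was not tested. In sham females at 18 months both genes were called higher than in sham males, by log2 folds of 2.42 for Slc22a7 and 2.82 for Slc22a19 in the authors' deposited table, and castrated males were called lower than sham females. Slc22a13, whose human form carries urate and nicotinate, averaged 29.3 FPKM in castrated males, 54.7 in sham females and 21.4 in sham males at 12 weeks, and 74.5, 192 and 45.5 at 18 months. At 18 months it was called higher in castrated males and in sham females than in sham males.

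In liver most of these anion carriers were near 0. Slc22a7 was the exception, with 1.64 FPKM in castrated males, 4.06 in sham females and 7.36 in sham males at 12 weeks, and 4.16, 7 and 16.1 at 18 months. Its liver RNA was called lower in castrated males than in sham females at 12 weeks, and lower in castrated males and in sham females than in sham males at 18 months. Slc22a6, Slc22a8, Slc22a12, Slc22a13, Slc22a19 and Slc22a22 stayed under 1 in every liver group. The highest was Slc22a12 at 0.30 FPKM in 12-week liver of castrated males, against 0.01 in sham females, its value when listed at 0, and 0.031 in sham males. The 11 kidney markers in those livers summed to 1.28, 0.20 and 0.24 FPKM.

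In the rodent cluster on chromosome 19, close relatives differed in opposite directions. Slc22a28 averaged 7.07 FPKM in castrated males and 2.85 in sham females, against 71.0 in sham males, in 12-week kidney, and 22.9, 11.7 and 184 at 18 months. Slc22a30 averaged 9.94 FPKM in castrated males and 2.87 in sham females, against 89.9 in sham males, at 12 weeks, and 10.5, 5.94 and 157 at 18 months. Slc22a29 had the opposite order, with 84.3 FPKM in castrated males and 133 in sham females, against 4.41 in sham males, at 12 weeks, and 36.6, 39.1 and 2.77 at 18 months. Slc22a27 was low in kidney, at 1.08 FPKM in castrated males, 1.68 in sham females and 0.094 in sham males at 12 weeks, and 1.57, 3.87 and 0.33 at 18 months. All 4 were called in kidney for both castration and sex at 18 months, Slc22a28 and Slc22a30 lower and Slc22a27 and Slc22a29 higher than in sham males. The authors' deposited table gave log2 folds of castrated over sham males of -3.06 for Slc22a28, -4.03 for Slc22a30 and 3.60 for Slc22a29, with implied standard errors of 0.37, 0.38 and 0.15. Its folds of sham females over sham males were -4.03, -4.85 and 3.77, with implied standard errors of 0.21, 0.15 and 0.16.

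In liver the sizes of these differences were not those of kidney. Slc22a30 stayed abundant in every arm, at 77.8 FPKM in castrated males, 65.0 in sham females and 112 in sham males at 12 weeks, and 97.0, 59.2 and 122 at 18 months. Slc22a28 averaged 0.40 FPKM in castrated males and 0.078 in sham females, against 11.0 in sham males, at 12 weeks, and 0.80, 0.24 and 15.5 at 18 months. So Slc22a28 and Slc22a30, nearly identical in coding sequence and in the promoter windows shown, were both low in kidney of castrated males and sham females, while in liver of those arms Slc22a28 stayed under 1 and Slc22a30 at 59.2 or above. Slc22a30 fell with castration in 12-week liver, with a difference of -0.53. At 18 months the authors' deposited table gave a castration log2 fold of -0.49, implied standard error 0.26, not called, and of -1.24 for sex with 0.21, which was called. Slc22a27 averaged 18.3 FPKM in castrated males and 28.2 in sham females, against 0.59 in sham males, in 12-week liver, and 44.5, 46.3 and 4.11 at 18 months. Slc22a29 averaged 4.21 FPKM in castrated males and 7.81 in sham females, against 0.29 in sham males, at 12 weeks, and 7.79, 5.88 and 1.96 at 18 months.

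Slc22a26 was called higher in liver of castrated males at both ages. It averaged 86.1 FPKM in castrated males and 85.7 in sham females, against 0.34 in sham males, at 12 weeks, and 76.1, 99.6 and 1.11 at 18 months. Its castrated and female means were close, and both were far above the mean of sham males. In the authors' deposited table at 18 months its log2 folds over sham males were 6.01 in castrated males and 6.29 in sham females, with implied standard errors of 0.48 and 0.81. In kidney it was low and ran the other way, at 1.54 FPKM in castrated males, 3.21 in sham females and 7.42 in sham males at 12 weeks, and 2.11, 7.63 and 6.51 at 18 months. At 18 months it fell with castration in kidney, while the fold of 0.11 for sham females over sham males in the authors' deposited table was not called.

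**Figure D3:**
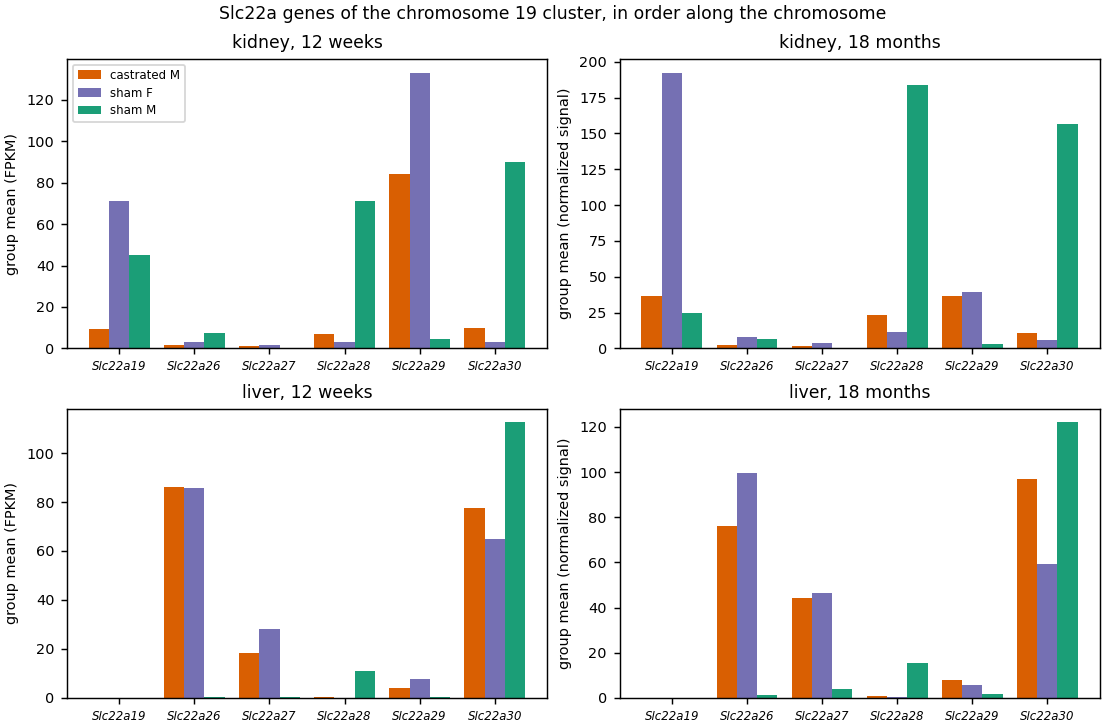
Group means of 6 Slc22a genes of the chromosome 19 cluster in kidney (top) and liver (bottom) at 12 weeks (left, FPKM) and 18 months (right, normalized signal). Bars are castrated males, sham females and sham males, 1 mean each, with genes in their order along the chromosome. Slc22a28 and Slc22a30 are tall in sham males in kidney at both ages, and Slc22a29 in the other arms at 12 weeks. Slc22a19 in sham females is also tall in kidney, and at 192 it is the tallest bar there at 18 months. In liver only Slc22a30 is tall in all 3 arms.

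Because reads may be exchanged among Slc22a27 to Slc22a30, their sum was also taken, a choice made after the values were seen. In 12-week kidney the sum was 102 FPKM in castrated males, 140.4 in sham females and 165 in sham males. Slc22a28 and Slc22a30 made up 16.6% of it in castrated males and 4.07% in sham females, against 97.3% in sham males. At 18 months the sum was 71.6, 60.6 and 344, and the share of Slc22a28 and Slc22a30 was 46.7%, 29.2% and 99.1%. In 12-week liver the sum was 101, 101 and 124 FPKM, and in 18-month liver 150.1, 112 and 144. There the share of Slc22a28 and Slc22a30 was 77.6%, 64.4% and 99.3% at 12 weeks and 65.2%, 53.3% and 95.8% at 18 months. The composition of the group thus differed in each tissue at both ages, while its sum differed by more than 2-fold between arms in 18-month kidney only.

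Slc22a2 and Slc22a3 encode electrogenic organic cation carriers of drugs, choline and amines. Slc22a2, the basolateral kidney form, averaged 49.7 FPKM in castrated males and 49.2 in sham females, against 171 in sham males, at 12 weeks, and 97.5, 109 and 196 at 18 months. It was called lower for sex at both ages and for castration at 18 months, and stayed under 1 in liver. Slc22a3 did not pass 1.69 in any group, and at 18 months it was called higher in kidney of castrated males, at 1.45, than of sham females, at 0.50, or of sham males, at 0.39.

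Among the carnitine and ergothioneine carriers, Slc22a5, which takes up carnitine, averaged 89.8 FPKM in castrated males, 84.0 in sham females and 91.8 in sham males in 12-week kidney and 159, 151 and 132 at 18 months. It was called in kidney at neither age. In liver it averaged 11.3, 10.0 and 7.02 FPKM at 12 weeks and 24.2, 18.1 and 8.68 at 18 months, and it rose with castration at both ages. The authors' deposited table at 18 months gave log2 folds of 1.22 for castrated over sham males and 0.85 for sham females over sham males, with implied standard errors of 0.29 and 0.32, and only the castration fold was called. Slc22a4, the ergothioneine carrier, averaged 26.7 FPKM in castrated males, 22.2 in sham females and 16.3 in sham males in 12-week kidney, and 25.4, 34.1 and 32.3 at 18 months. It was called higher with castration at 12 weeks and lower at 18 months, with a log2 fold of -0.52 and an implied standard error of 0.13 in the authors' deposited table. Slc22a21, a carnitine carrier close in sequence to Slc22a5, averaged 8.65, 8.67 and 3.26 FPKM in 12-week kidney, where it was called higher in sham females, and 2.60, 1.71 and 1.71 at 18 months.

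The remaining Slc22a genes were called in fewer comparisons or at low means. Slc22a18, an orphan carrier, averaged 320.2 FPKM in castrated males, 315 in sham females and 359 in sham males in 12-week kidney, and 318, 281 and 377 at 18 months, where it was called lower for castration and sex by log2 folds of -0.39 and -0.55 in the authors' deposited table. Slc22a17, a lipocalin-2 receptor, averaged 22.0, 23.9 and 12.7 FPKM in 12-week kidney, where it rose with castration, and 19.4, 19.1 and 17.2 at 18 months. Slc22a23, an orphan, averaged 10.3, 9.02 and 7.86 FPKM in 12-week kidney and was called higher with castration there, with a difference of 0.36. Slc22a15 fell with castration in 12-week liver, at 3.15 FPKM in castrated males, 3.96 in sham females and 5.76 in sham males. Slc22a14 did not pass 2.70 FPKM in kidney, and at 18 months it was called higher in castrated males and in sham females than in sham males, at means of 0.60, 1.01 and 0.16.

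Slco1a1 encodes a carrier of bile acids and steroid conjugates and was near 0 in kidney of both arms other than sham males. In kidney it averaged 0.040 FPKM in castrated males and 0.025 in sham females, against 75.6 in sham males, at 12 weeks, and 0.044, 0.020 and 64.8 at 18 months. In liver it averaged 12.7 FPKM in castrated males and 6.53 in sham females, against 149 in sham males, at 12 weeks, and 0.46, 0.12 and 105 at 18 months. At 18 months it fell with castration and was lower in sham females in both tissues, with DESeq2 adjusted p of 6.07e-13 and 2.00e-28 in kidney and 2.26e-47 and 4.37e-93 in liver in the authors' deposited table. At 12 weeks it was listed only for castrated males against sham females, where castrated males were called higher in liver. Its folds rest on means near 0 in 2 arms and are not quoted as sizes. On the mean + 1 scale the castration difference was -6.20 and -5.98 in kidney and -3.46 and -6.18 in liver, at 12 weeks and 18 months.

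Slco1a4, the neighbouring gene and a hepatic uptake carrier of drugs and bile acids, had the opposite order in liver. It averaged 77.9 FPKM in castrated males and 78.9 in sham females, against 12.9 in sham males, at 12 weeks, and 36.2, 53.1 and 13.3 at 18 months. It rose with castration at both ages and was higher in sham females at 18 months, where the authors' deposited table gave log2 folds of 1.28 and 1.78 with implied standard errors of 0.20 and 0.26. In kidney it did not pass 1.79 FPKM, and at 12 weeks it was called lower in castrated males than in sham females. The sum of Slco1a1 and Slco1a4 in liver was 90.5 FPKM in castrated males and 85.4 in sham females, against 162 in sham males, at 12 weeks, and 36.7, 53.2 and 118 at 18 months. Slco1b2, which takes up bilirubin conjugates and bile acids, had the highest liver means of the 45 genes in sham males, and was called in no comparison. It averaged 285, 236 and 327 FPKM in liver at 12 weeks and 288, 335 and 341 at 18 months.

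Slco1a6, a kidney member of the same cluster, averaged 34.4 FPKM in castrated males, 70.9 in sham females and 96.0 in sham males at 12 weeks, and 85.4, 196 and 115 at 18 months. It fell with castration at both ages, and at 18 months it was higher in sham females, with log2 folds of -0.59 and 0.60 in the authors' deposited table and implied standard errors of 0.13 and 0.21. Slco3a1, a carrier of prostaglandins, averaged 13.1 FPKM in castrated males and 11.0 in sham females, against 51.4 in sham males, in 12-week kidney, and 29.9, 26.2 and 72.1 at 18 months. It fell with castration at both ages, with an 18-month log2 fold of -1.39 and an implied standard error of 0.10 in the authors' deposited table. Slco4a1, a thyroid hormone carrier, averaged 7.01, 8.18 and 2.87 FPKM in 12-week kidney and 3.58, 6.55 and 2.16 at 18 months, and was called higher in sham females at both ages and in castrated males at 18 months. Slco4c1, a basolateral kidney carrier of cardiac glycosides, averaged 7.55, 1.36 and 6.42 FPKM in 12-week kidney, where it was called lower in sham females, and 2.62, 3.54 and 4.50 at 18 months, where it was called lower in castrated males. Slco2b1, which carries steroid sulfates, averaged 13.6, 16.1 and 7.26 FPKM in 12-week kidney, where it rose with castration, and 17.9, 14.8 and 14.4 at 18 months. In liver it averaged 51.2, 53.2 and 38.8 FPKM at 12 weeks and 65.4, 64.6 and 56.4 at 18 months. Slco2a1, the prostaglandin uptake carrier, was called higher in kidney of sham females at both ages, at 4.67, 6.51 and 3.50 FPKM and at 10.6, 14.3 and 8.24, and lower with castration in 12-week liver, at 7.88, 10.0 and 11.1 FPKM.

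Abcc3, a basolateral exporter of glucuronides and bile acids, was called higher in kidney of castrated males at both ages. It averaged 4.71 FPKM in castrated males and 25.7 in sham females, against 0.74 in sham males, in 12-week kidney, and 8.13, 40.3 and 0.97 at 18 months. Castrated males lay between sham females and sham males at both ages. The authors' deposited table gave 18-month log2 folds over sham males of 2.95 in castrated males and 5.28 in sham females, and of -2.32 for castrated males over sham females, with implied standard errors of 0.19, 0.55 and 0.37. In liver Abcc3 averaged 179, 169 and 158 FPKM at 12 weeks and 77.6, 73.6 and 57.7 at 18 months and was not called.

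Abcc4, an exporter of urate, bile acids and cyclic nucleotides, averaged 14.1 FPKM in castrated males, 8.42 in sham females and 3.81 in sham males in 12-week kidney, and 43.5, 33.3 and 18.9 at 18 months. At 18 months it rose with castration by a log2 fold of 1.02 and was higher in sham females by 0.68 in the authors' deposited table, with implied standard errors of 0.21 and 0.15. In liver it was scarce, at 0.91, 0.84 and 0.35 FPKM at 12 weeks and 2.56, 4.66 and 0.58 at 18 months. Castrated males were called higher than sham males there at both ages, and sham females at 18 months. Abcc2 is the canalicular and brush-border exporter of conjugates. In 12-week kidney it averaged 87.4 FPKM in castrated males, 48.4 in sham females and 68.6 in sham males, and castrated males were called higher than sham females. At 18 months it averaged 54.5, 38.5 and 75.9 in kidney and was called lower for castration and sex. In liver it averaged 273, 252 and 165 FPKM at 12 weeks, where it rose with castration, and 57.4, 65.1 and 66.4 at 18 months, where the log2 fold of -0.36 in the authors' deposited table was not called. Abcc6, whose loss causes ectopic calcification, averaged 171, 172 and 94.8 FPKM in 12-week liver and 20.3, 19.7 and 9.05 in 12-week kidney, and it rose with castration in both. At 18 months its means were 56.6, 50.9 and 47.7 in liver and 6.05, 4.47 and 5.71 in kidney, with no call for castration and a lower call for sham females in kidney. Abcc1 rose with castration in kidney at both ages, at 4.22, 4.63 and 2.93 FPKM and at 5.72, 7.29 and 3.57. Abcc5, an exporter of cyclic nucleotides, rose with castration in kidney at both ages and in 12-week liver, with kidney means of 38.4, 30.9 and 20.4 FPKM and of 13.9, 13.0 and 11.1. In 18-month liver it averaged 2.32, 2.35 and 1.06 and was called higher in sham females than in sham males. Abcc10 was called once, higher in sham females in 12-week kidney, at 15.8, 17.0 and 8.30 FPKM. Abcc9 is a sulfonylurea receptor and channel subunit that the naming rule includes. It averaged 3.89 in castrated males, 7.10 in sham females and 3.65 in sham males in 18-month liver. It was called higher in sham females there, as were Abcc4 and Abcc5. Fibroblast and macrophage marker sums in these livers were also highest in sham females, and their part in these calls was not tested. In kidney Abcc9 was called lower in castrated males than in sham males at 18 months, at 4.76, 4.55 and 5.83. In 12-week kidney it was called higher in castrated males than in sham females, at 3.14, 2.05 and 2.79 FPKM in the 3 arms.

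**Figure D4:**
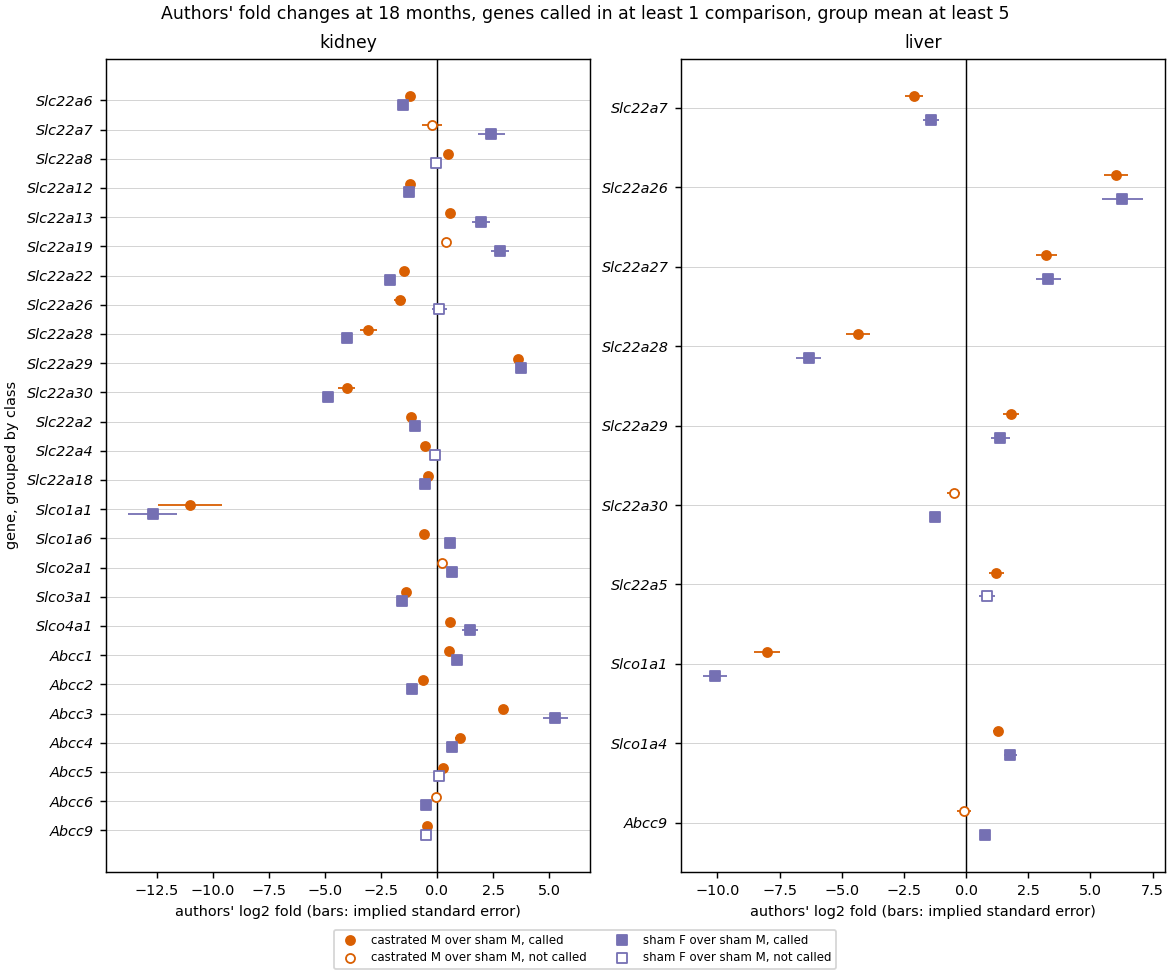
Authors' log2 folds at 18 months over sham males in kidney (left) and liver (right), for genes with a mean of at least 5 that were called for castration or sex. Circles are castrated males and squares sham females, filled where called, and bars are standard errors implied from the authors' p-values. In kidney Slc22a6, Slc22a12, Slc22a22, Slc22a28, Slc22a30, Slco1a1 and Slco3a1 lie left of 0 in both comparisons, and Slc22a29 and Abcc3 lie right of 0.

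Across arms, 7 genes were at least 2-fold lower than in sham males in both castrated males and sham females in 18-month kidney. These were Slc22a12, Slc22a22, Slc22a28, Slc22a30, Slc22a6, Slco1a1 and Slco3a1, and they were among the 9 genes with that pattern at 12 weeks, which also held Slc22a2 and Slc22a26. Abcc3 and Slc22a29 were at least 2-fold higher in both arms at both ages in kidney. In liver, Slc22a26, Slc22a27, Slc22a29 and Slco1a4 were at least 2-fold higher and Slc22a28 and Slco1a1 at least 2-fold lower in both arms at both ages. No share of all genes was taken for these patterns across both arms, so the counts are descriptions. Each pair of comparisons shares the sham males, so a high or low sham male mean moves both. Castrated males and sham females, which do not share that mean, were at least 2-fold apart for 7 genes in 12-week kidney, 6 in 18-month kidney and 0 in liver at either age. At 18 months these 6 were Abcc3, Slc22a13, Slc22a19, Slc22a26, Slc22a7 and Slco1a6, and castrated males were lower in each.

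In every arm at both ages, genes at least 2-fold higher in kidney outnumbered those at least 2-fold higher in liver. In castrated males at 12 weeks, 22 of the 39 genes that reached a mean of 1 in either tissue were at least 2-fold higher in kidney and 11 at least 2-fold higher in liver, where 24.0% and 9.95% of all such genes were. In sham females at 12 weeks the counts were 23 and 12 of 40, beside 24.8% and 10.3%, and in sham males 23 and 8 of 37, beside 24.2% and 10.0%. At 18 months they were 22 and 8 of 38 in castrated males, beside 35.3% and 8.00%, 22 and 7 of 38 in sham females, beside 33.4% and 8.82%, and 21 and 6 of 39 in sham males, beside 36.6% and 8.05%. No test between tissues is in the deposited tables, so these are descriptions of means. The median of all such genes also lay toward kidney, by 0.38 to 0.40 at 12 weeks and 0.70 to 0.77 at 18 months. With it subtracted, the 18-month counts were 21 and 10 in castrated males, 21 and 11 in sham females and 19 and 10 in sham males. The differences below are without this subtraction. The widest kidney excess in sham males at 12 weeks was that of Slc22a12, with 9.60, followed by 7.82 for Slc22a8, 7.68 for Slc22a6 and 7.37 for Slc22a2. On the liver side, sham males had differences of kidney minus liver of -8.17 for Slco1b2, -6.51 for Abcc3 and -3.25 for Abcc6. The arm changed the tissue order of some genes. Slc22a26 was higher in liver of castrated males and sham females and higher in kidney of sham males, with differences of kidney minus liver of -5.10, -4.37 and 2.65 at 12 weeks and -4.63, -3.54 and 1.83 at 18 months. Slc22a30 was at least 2-fold higher in liver of castrated males and sham females at 12 weeks, with -2.85 and -4.09. In sham males it was within 2-fold, with -0.32. At 18 months its differences were -3.09 in castrated males, -3.12 in sham females and 0.36 in sham males. The last was within 2-fold and below the 0.77 of the median gene in that arm.

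**Figure D5:**
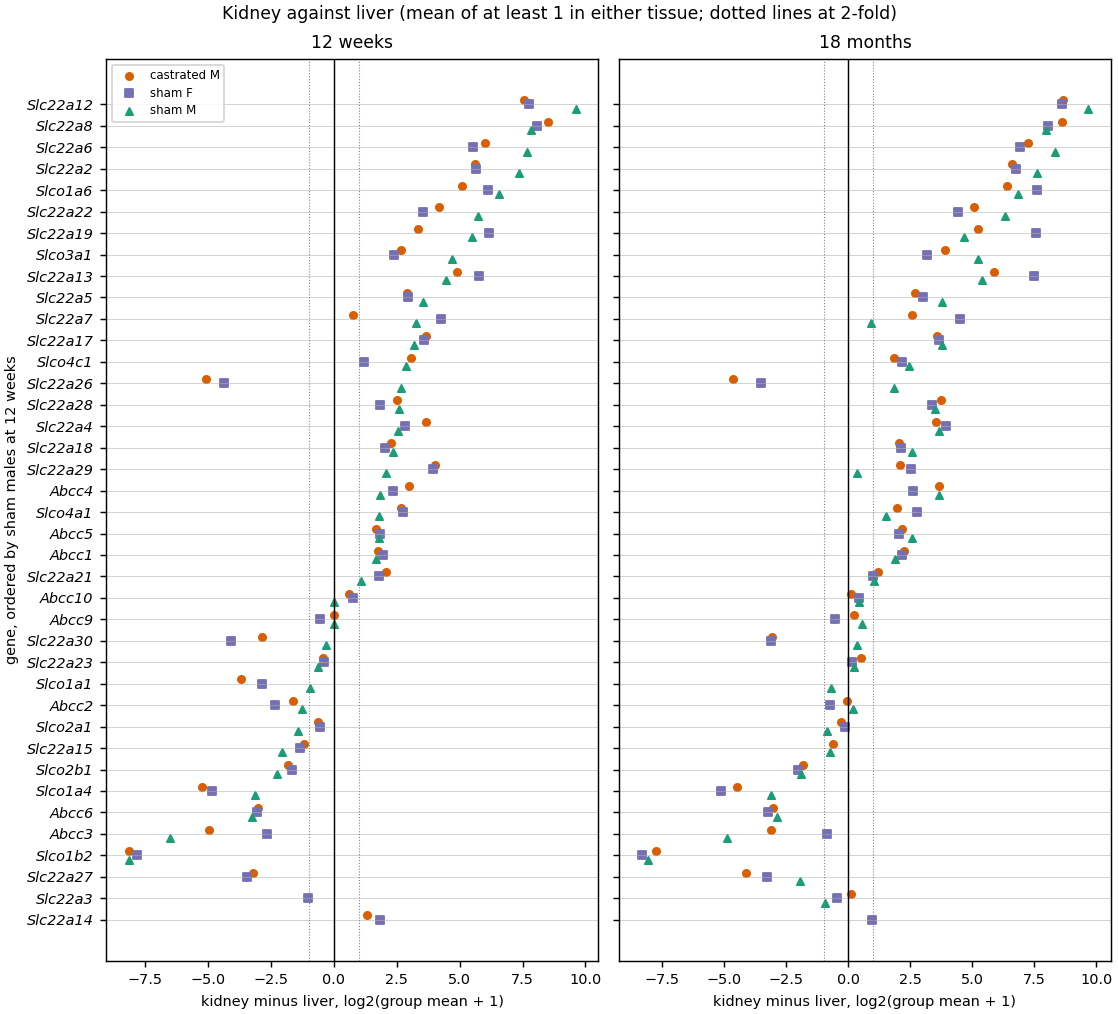
Kidney minus liver difference of log2(group mean + 1) for transporter genes that reached a mean of 1 in either tissue, at 12 weeks (left) and 18 months (right). Circles are castrated males, squares sham females and triangles sham males, 1 value each, with genes ordered by sham males at 12 weeks. The sham male triangle of Slc22a26 lies right of 0 and its other symbols left of 0 at both ages.

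Other carriers and regulators of the same compounds were read from lists made for this purpose. Of 26 other organic ion, urate, bile acid and nucleoside carriers, 6 were called higher and 8 lower with castration in 18-month kidney, of 25 tested, and 5 higher and 8 lower for sex, beside 9.56% and 13.1% of all genes for castration and 7.91% and 8.90% for sex. Their median castration difference there was 0.26. Among them Slc17a1, an apical urate and phosphate carrier, averaged 265 in castrated males and 253 in sham females, against 452 in sham males. Slc17a3 averaged 62.5 in castrated males and 109 in sham females, against 188 in sham males. Abcg2, an apical urate exporter, was called lower for castration and sex in both tissues at 18 months, with liver means of 25.2, 19.7 and 49.8. In 18-month liver, Abcg2 was the only one of the 26 called for castration, and in 12-week liver 1 was called higher and 4 lower of 7 tested, beside 20.2% and 21.5% of all genes. Of 16 transcription factors and receptors of transporter genes, 3 were called higher and 5 lower with castration in 18-month kidney, and 1 higher and 0 lower in 18-month liver, beside 9.56% and 13.1% of all genes in kidney and 1.08% and 1.01% in liver. The liver gene was Cux2, a factor more abundant in female mouse liver, at 6.92 in castrated males and 9.79 in sham females, against 0.047 in sham males. In 12-week liver, of the 4 factors and receptors tested for castration, 3 were called higher and 1 lower, beside 20.2% and 21.5% of all genes. Those higher were Nr1i2, Nr1h4 and Cux2. The lower gene was Bcl6, a repressor more abundant in male mouse liver. It averaged 4.50 and 3.997 FPKM in castrated males and sham females, against 17.8 in sham males. In 18-month liver Bcl6 was called lower for sex but not for castration. Of 4 scaffolds that hold transporters at the brush border, Slc9a3r1 was called lower with castration in kidney at both ages and Slc9a3r2 higher.

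Substrates of these carriers were looked up by name in the metabolite tables of kidney, liver and serum, which give 1 mean relative abundance per arm with no error or number of animals. Of 13 compounds sought, 8 to 12 were found per table, giving 59 castration differences, of which 5 lay outside the 5th to 95th percentile of all compounds in their table. These were taurocholic acid in 12-week liver, 12-week serum and 18-month kidney, bilirubin in 12-week serum and hippuric acid in 18-month kidney. Indoxyl sulfate, a substrate of the Slc22a6 and Slc22a8 carriers, had log2 differences of castrated over sham males of 0.56 in kidney and 0.95 in serum at 12 weeks, and of -0.66 in kidney, 0.19 in liver and 0.18 in serum at 18 months. These 5 are about as many as the percentile limits leave outside by construction, and none of the differences was tested.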

How the data were processed

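Polyadenylated RNA was enriched before sequencing, per the labels' protocols, and 46 libraries fall into 12 groups by tissue, arm and age. The tools named in the submitters' processing notes are HISAT2, SAMtools and Cufflinks, with build mm10 and no versions. The authors deposited group mean FPKM at 12 weeks, with 0.01 added to every mean as the values show, and group mean normalized signal of unnamed unit at 18 months, so the depth of a library, its error and confidence intervals could not be given. The deposited log2 folds at 18 months, from DESeq2 per the file headers, were turned round so that castrated males or sham females stand over sham males, and castrated males over sham females. Each p-value was used as the authors deposited it, beside a test statistic (score) in tables of Cuffdiff layout at 12 weeks and from DESeq2 at 18 months. No further test was run, since the tables hold 1 mean per group. The deposited metabolite tables hold relative abundance with no stated unit.

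The genes were matched by symbol. All of them enter the counts and medians, and the values of 1 are not reported here. Differences of means used log2 of the mean plus 1, and descriptions a 2-fold limit where the larger mean was at least 1. All genes tested formed the background. Genes with a mean of at least 5 that were called or passed 2-fold are named in full, and others mostly by range. The transporter genes and the other gene lists were chosen with earlier results of these data known. Python 3.11.15, pandas 2.3.3, NumPy 2.4.6, SciPy 1.17.1, Biopython 1.88 and matplotlib 3.10.9 were used, and the computations were tested on simulated data. Alternatives tried were a stricter adjusted p, a 2-fold limit with and without the test, another added value, other minimum means, a 4-fold limit between tissues and subtraction of the median gene.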

Additional observations from a re-analysis of the deposited data

How the results depend on the processing

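Alternatives were compared by the total of higher and lower genes. Of 54 alternative totals of called genes, 36 lay within 1.5 times the total given, as did all 18 totals of genes differing between kidney and liver. The split by direction could still change. For castration in 12-week kidney it was 9 higher and 7 lower by call, but 6 and 12 by the 2-fold limit alone. With the median gene subtracted, genes higher in liver went from 6 to 10 in 18-month sham males and from 7 to 11 in 18-month sham females. Requiring a 2-fold difference beside the call left 8 genes in 12-week kidney for castration, 0 for castrated males against sham females in 12-week kidney, 4 and 0 for castration and sex in 12-week liver, and 0 for castrated males against sham females there. At 18 months in kidney it left 12 for castration, 14 for sex and 6 between castrated males and sham females, the same numbers as a 2-fold limit without the test. That limit alone gave 20 genes for sex and 7 for castrated males against sham females in 12-week kidney, and 7, 6 and 0 for castration, sex and castrated males against sham females in 12-week liver. An adjusted p under 0.01 left 7 for castration and 0 for sex in 12-week liver. The cause was not tested beyond the stricter rules themselves. Of 54 alternative medians, 10 moved by 0.1 or more and 7 took the opposite sign. At 18 months, subtracting the median gene gave -0.01 for sex in kidney, -0.007 for castration in liver and -0.02 for sex in liver, and a minimum mean of 5 gave -0.004 for castration in kidney. The other 3 were medians of castrated males minus sham females in liver, which lay within 0.03 of 0.

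No paired analysis was possible because the deposited values are group means with no replicate columns, and for the same reason no replicate could be left out. Beyond that, an outlying animal could not be seen, depth is unknown, and the 12-week tables list each gene for 1 comparison only, so 12-week counts are lower bounds. Reads shared by near-identical genes limit the values of Slc22a27 to Slc22a30 most directly.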
